A study of Homo sapiens with 16 samples.

Results

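The aryl hydrocarbon receptor gene AHR, its dimer partner ARNT, the feedback genes AHRR and TIPARP and the cytochrome P450 genes CYP1A1 and CYP1B1 were followed, 6 of the 58676 genes counted. These genes were chosen by a rule that rests on the same data: the set was built around CYP1A1 because its rise with indisulam was the largest in SUM159. The values of SUM159 cells given indisulam against untreated cells therefore chose the genes, and they are given as a description with no test. Polyadenylated RNA came from A549 cells, derived from a human lung cancer and grown in RPMI, and from SUM159 cells, derived from a human triple-negative breast cancer and grown in DMEM/F12 with insulin and the steroid hydrocortisone. Cells of each line were kept untreated or received 2 µM palbociclib, an inhibitor of the kinases CDK4 and CDK6, 3 µM indisulam, a sulfonamide that causes the loss of the splicing factor RBM39, or both drugs together, for 16 h. Each of the 8 groups held 2 libraries, which the study calls technical duplicates, so p-values measure the spread between these libraries and not between independent cultures.

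AHR is a ligand-activated transcription factor of the bHLH-PAS family. In the resting cell it is held in the cytoplasm by HSP90 and the co-chaperone PTGES3, and after binding dioxin-like chemicals, drugs or tryptophan metabolites it enters the nucleus, pairs with ARNT and binds DNA elements with the core GCGTG. CYP1A1 and CYP1B1, which oxidize polycyclic aromatic hydrocarbons and oestrogens, are its best known targets in lung and breast epithelium, and both AHRR, a repressor that competes for ARNT, and TIPARP, a mono-ADP-ribosyltransferase that acts on AHR, are targets that limit the response.

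DNA before the starts of the genes is shown first, since the binding element of the receptor is defined by its letters. The windows came from RefSeq (GRCh38.p14), and 5 of the 6 genes had 1 or more entries there. Capitals in the first 3 sequences mark the core GCGTG or its reverse complement CACGC in the 250 bases before a start. In the last sequence they mark the longer form TNGCGTG, which contains the core, or its reverse complement CACGCNA, in the 300 bases upstream of CYP1A1 that hold most of them. They run from 5′ to 3′ on the strand of the gene.
CYP1A1, chr15:74725529-74725778, minus strand: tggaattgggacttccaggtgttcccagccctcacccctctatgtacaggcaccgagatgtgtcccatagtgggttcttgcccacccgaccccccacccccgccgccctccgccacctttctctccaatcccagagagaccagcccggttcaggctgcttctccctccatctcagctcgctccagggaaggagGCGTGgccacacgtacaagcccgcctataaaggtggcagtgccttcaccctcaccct
AHRR, chr5:321464-321713, plus strand: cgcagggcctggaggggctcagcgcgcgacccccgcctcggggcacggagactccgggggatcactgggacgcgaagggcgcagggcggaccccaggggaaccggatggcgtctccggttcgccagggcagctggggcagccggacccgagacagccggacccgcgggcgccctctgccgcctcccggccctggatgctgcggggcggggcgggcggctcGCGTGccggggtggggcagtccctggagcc
TIPARP, chr3:156674340-156674589, plus strand: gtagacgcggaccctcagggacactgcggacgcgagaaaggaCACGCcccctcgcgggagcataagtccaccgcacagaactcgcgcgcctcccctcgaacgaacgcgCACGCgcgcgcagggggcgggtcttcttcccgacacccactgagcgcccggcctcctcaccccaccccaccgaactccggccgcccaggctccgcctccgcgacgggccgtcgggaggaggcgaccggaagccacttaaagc
CYP1A1 further upstream, chr15:74726290-74726589, minus strand: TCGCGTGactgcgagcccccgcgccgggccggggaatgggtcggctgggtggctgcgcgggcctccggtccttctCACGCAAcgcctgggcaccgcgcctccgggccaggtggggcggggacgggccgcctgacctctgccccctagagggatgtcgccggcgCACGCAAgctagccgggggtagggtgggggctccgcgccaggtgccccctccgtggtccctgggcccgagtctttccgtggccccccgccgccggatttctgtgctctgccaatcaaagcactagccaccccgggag

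The core lay 57 bases before the CYP1A1 start, 30 bases before the first AHRR start, and 208 and 142 bases before the first TIPARP start. Counted over whole windows of 300 bases that reach 50 bases past the start, on either strand, the core was present in 36.5% of 35116 promoter windows and the longer form in 5.51%. The core before the first AHRR start belonged to the longer form. No core was found in the ARNT window, and the AHR window held 1 core after the start. In the 1500 bases before the start, CYP1A1 held 5 copies of the longer form, at 1385, 1061, 986, 898 and 503 bases upstream. At least 1 copy was found in 23.2% of all such windows, and only 8 windows (0.0228%), that of CYP1A1 included, held 5 or more. ARNT held 2 copies, each AHRR start 1, the third TIPARP start 1 and AHR none. These matches describe letters and do not show binding.

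**Figure D1:**
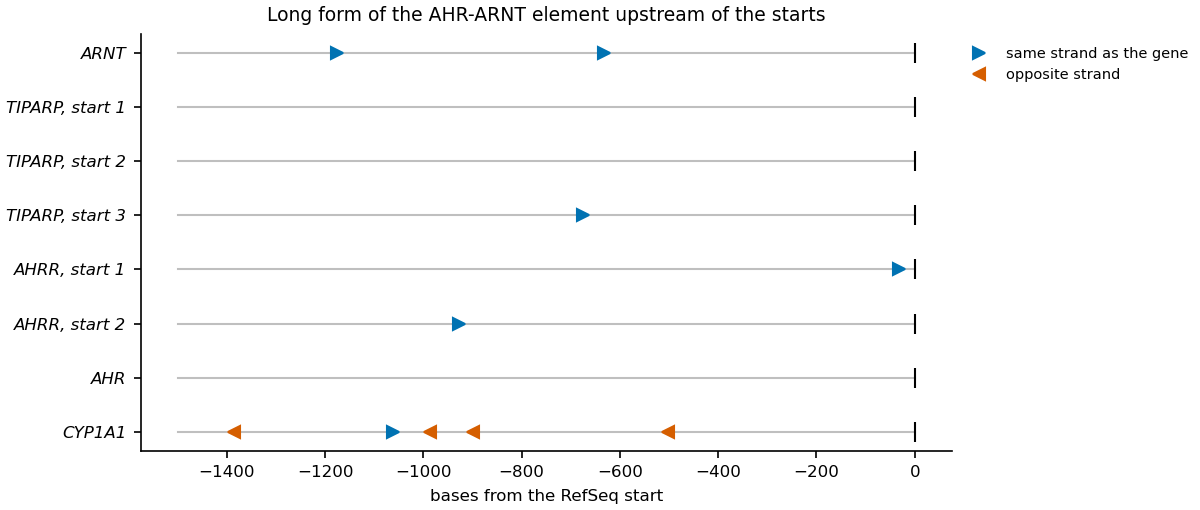
Copies of the longer element TNGCGTG in the 1500 bases before each RefSeq start of 5 genes. The x axis gives bases from the start and each row is 1 start; right-pointing triangles lie on the strand of the gene and left-pointing ones on the opposite strand. CYP1A1 holds 5 copies and no other start holds more than 2.

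In GENCODE release 44 coordinates on GRCh38, AHR lies on chromosome 7 (16916359-17346152, plus strand), ARNT on chromosome 1 (150809713-150876708, minus), AHRR on chromosome 5 (321714-438291, plus), CYP1A1 on chromosome 15 (74719542-74725536, minus), CYP1B1 on chromosome 2 (38066973-38109902, minus) and TIPARP on chromosome 3 (156673235-156706770, plus). The values are whole-gene counts over exons and do not separate isoforms. AHR shares 29.5% of its exon bases with a gene without a symbol on the same strand, which had 0 counts in every library. Reads from the shared bases may have been set aside as ambiguous, so AHR may be undercounted. AHRR shares 58.7% of its exon bases with the readthrough gene PDCD6-AHRR on the same strand, so reads from the readthrough cannot be told apart from its own. CYP1B1 shares 11.3% of its exon bases with CYP1B1-AS1 on the opposite strand, which had 2 to 75 counts per library.

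The libraries held 18306636 to 34075588 gene counts. The detection floor was taken as 3 counts, or 0.0880 to 0.164 counts per 1000000 gene counts of a library (CPM). Gene levels in CPM use library totals multiplied by a scaling factor (TMM) set within each line, from 0.943 to 1.05. The floor leaves this factor out. Of 5 epithelial markers, EPCAM, CDH1, KRT8 and KRT18 were higher in every A549 library than in any SUM159 library, with EPCAM at 20.3 to 26.1 against at most 0.600 CPM and KRT8 at 4809 to 7047 against 533 to 792 CPM. KRT7 ran the other way in part, at 1171 to 1575 CPM in A549 and 1547 to 3196 CPM in SUM159. All 5 mesenchymal markers were higher in SUM159, VIM at 2755 to 4144 against 699 to 930 CPM. Of the receptors that triple-negative cells lack, ESR1 and PGR were at or below 0.796 CPM in SUM159 but ERBB2 stood at 98.4 to 145 CPM. CDKN2A, whose product A549 is described as lacking, was read at 1.35 to 2.48 CPM in A549 and at no more than 0.0482 CPM in SUM159. In SUM159 the study reports more of this product, p16INK4A, by Western blot. That measure is of protein and after a longer treatment, so it is not like these RNA values. Levels are shares of the RNA of whole cultures, so a change in the number of cells that express a gene and a change in RNA per cell cannot be told apart.

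Adding indisulam to palbociclib raised the 4 target genes in SUM159: CYP1A1 rose 5.74-fold, AHRR 3.17-fold, CYP1B1 3.08-fold and TIPARP 1.38-fold against palbociclib alone. AHR itself rose slightly, and ARNT fell. The change itself is between palbociclib and combination libraries, which the selection of CYP1A1 did not use. No other comparison within SUM159 gives CYP1A1 a test. The test is not independent of that selection, because the low-count filter, scaling and spread were estimated from all libraries of the line. The untreated and indisulam libraries therefore enter its standard error and adjusted p. All 6 genes passed the test (edgeR quasi-likelihood, adjusted p under 0.05 over all genes), in a comparison that called 48.3% of the 16080 genes tested in SUM159. In the same comparison in A549, AHRR rose 2.08-fold, TIPARP 1.46-fold and CYP1B1 1.32-fold, and ARNT fell, so that 4 of 5 genes passed beside 51.5% of 15744 genes. CYP1A1 is left out of the A549 counts because it passed the filter on low counts only through the libraries that received indisulam.

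**Figure D2:**
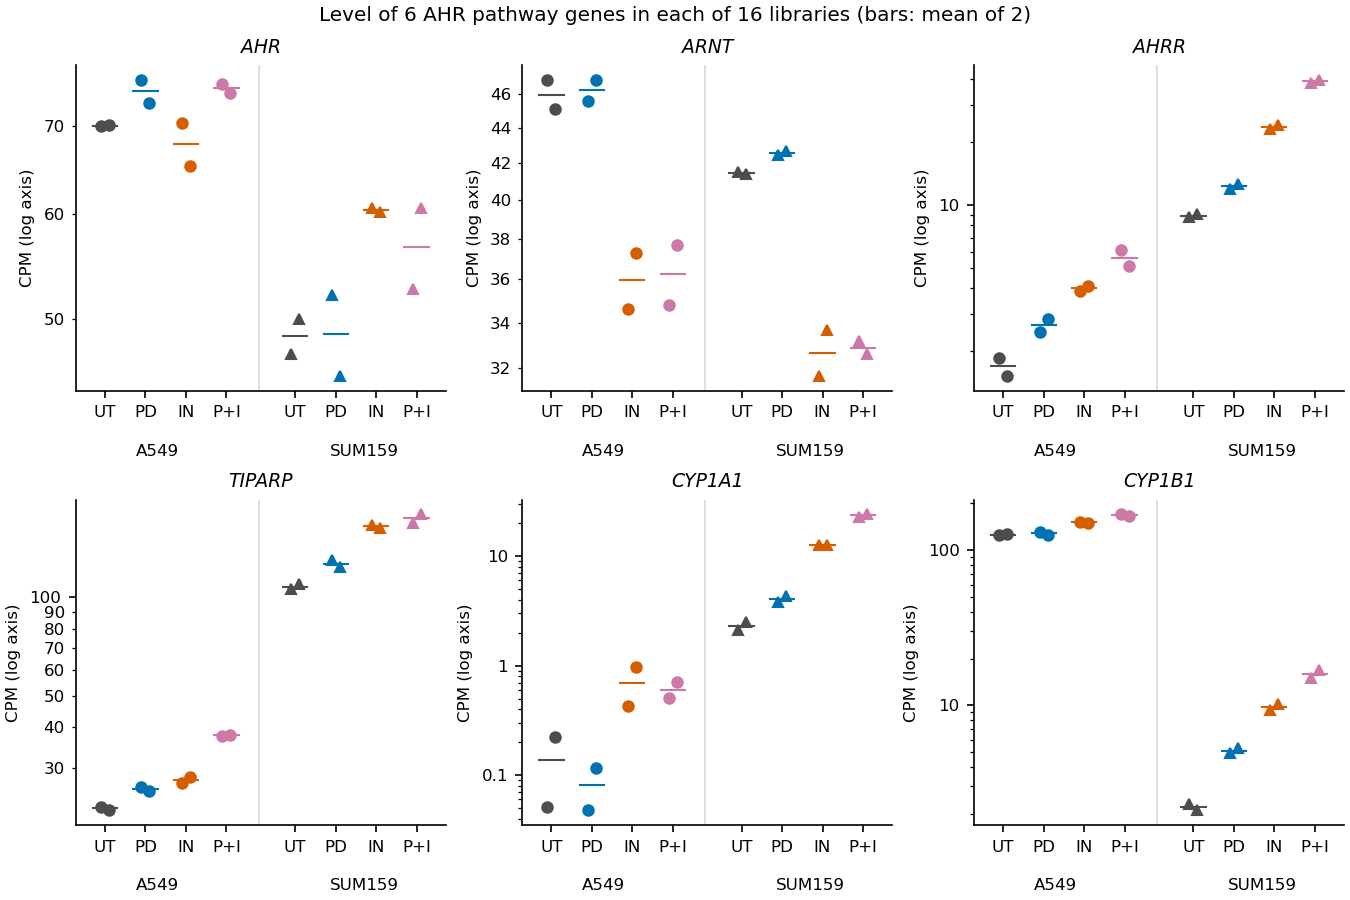
CPM of each gene (log y axis) in the 16 libraries, by cell line and treatment: UT untreated, PD palbociclib, IN indisulam, P+I both drugs. Points are libraries and bars are means of 2. In SUM159 the 4 target genes climb from UT through PD and IN to P+I. ARNT sits lower in IN and P+I than in UT and PD in both lines. For SUM159 the step from UT to IN is a description only, since it chose the genes.

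With indisulam alone, A549 showed rises of AHRR (2.35-fold), TIPARP (1.23-fold) and CYP1B1 (1.20-fold) against untreated cells and a fall of ARNT; 4 of 5 genes passed the test, beside 49.2% of all genes. The corresponding SUM159 comparison, which chose the genes, called 46.9% of all genes, and nothing is read from the members there. Palbociclib alone raised CYP1B1, AHRR and TIPARP in SUM159, 3 of the 5 genes given a test beside 54.5% of all genes. In A549 it raised AHRR and TIPARP, 2 of 5 beside 43.2%. With both drugs against untreated cells, 5 of 5 genes passed in SUM159 beside 65.3% of all genes and 4 of 5 in A549 beside 57.8%. Palbociclib added to indisulam raised AHRR and CYP1B1 in SUM159, 2 of 5 beside 52.9%, and AHR, AHRR, CYP1B1 and TIPARP in A549, 4 of 5 beside 38.8%. With 5 or 6 members, these counts are not read as different from the shares of all genes called. The comparisons within a line share libraries and are not independent of each other. Those of SUM159 in this paragraph also share untreated or indisulam libraries with the comparison that chose the genes. So do the comparisons between lines that use untreated SUM159 cells.

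**Figure D3:**
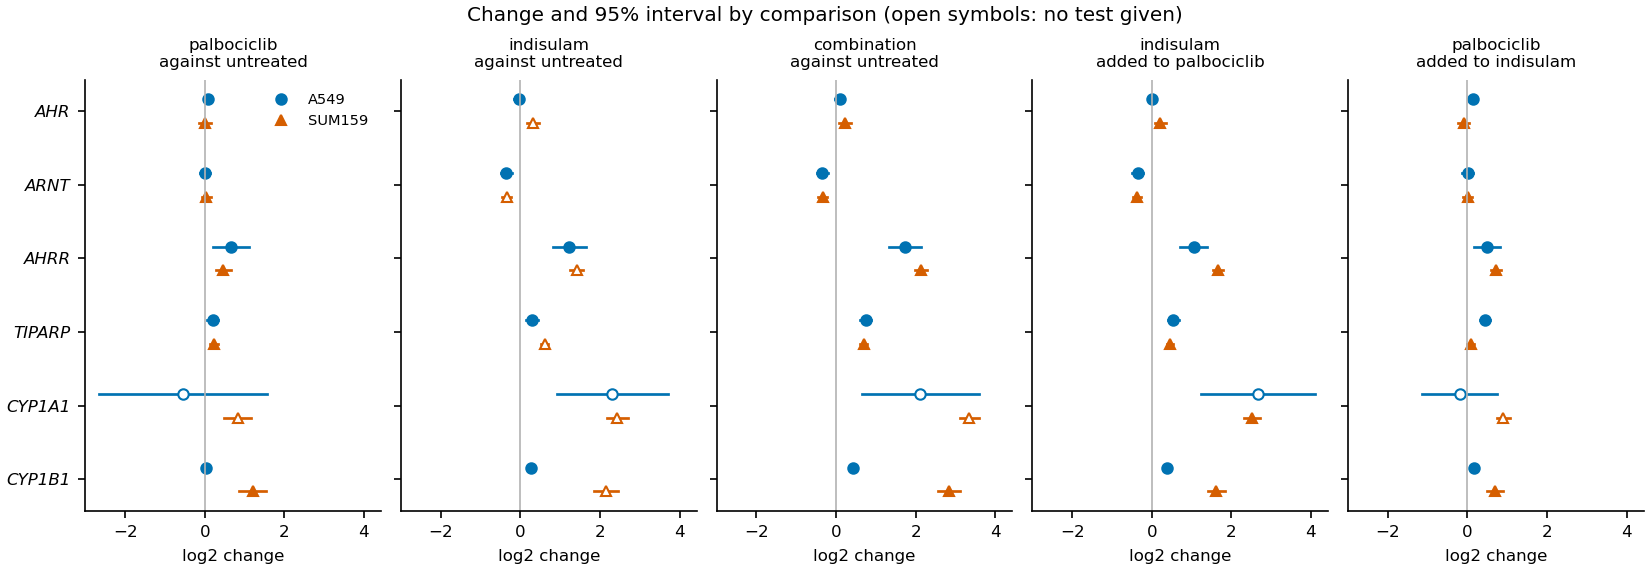
Change of each gene on the log2 scale (x axis) in 5 comparisons, with 95% intervals, in A549 (circles) and SUM159 (triangles). Open symbols are given no test and filled ones are tested, whatever the outcome; in SUM159, CYP1A1, CYP1B1 and AHRR have the 3 largest changes when indisulam is added to palbociclib (2.52, 1.62 and 1.66), and the A549 intervals of CYP1A1 are wide because it had 1 to 22 counts per library.

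AHR, the receptor, was expressed in both lines and moved little. In A549 its level was 70.0 and 70.1 CPM in untreated cells, 75.8 and 72.9 CPM with palbociclib, 70.4 and 65.3 CPM with indisulam, and 75.3 and 74.2 CPM with both. The combination libraries lay above the indisulam libraries by 0.14 on the log2 scale (SE 0.05, adjusted p = 0.0441), a call that was lost in 10 of 15 alternative fits, among them all leave-one-out fits but that without the first indisulam library (adjusted p 0.0061 to 0.367; 0.08 without the second indisulam library). In SUM159 the receptor was at 47.1 and 50 CPM in untreated cells, 52.2 and 45.3 CPM with palbociclib, 60.7 and 60.2 CPM with indisulam, and 52.7 and 60.7 CPM with both. The combination groups there did not overlap those of palbociclib, with a rise of 0.22 on the log2 scale (SE 0.07, adjusted p = 0.0145), or those of untreated cells, with a rise of 0.22 (SE 0.07, adjusted p = 0.0130). Each call rested on single libraries: the first fell to 0.11 without the second palbociclib library (adjusted p = 0.229) or the second combination library (adjusted p = 0.241; range over 15 alternatives 0.00139 to 0.241), and the second to 0.17 without the first untreated library (adjusted p = 0.112) and 0.12 without the second combination library (adjusted p = 0.199; range 0.000256 to 0.199).

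ARNT, the partner that AHR needs to bind DNA and that HIF factors share, was lower with indisulam in A549. It was also lower in both lines when indisulam was added to palbociclib. A549 had 46.9 and 45.1 CPM untreated and 45.6 and 46.9 CPM with palbociclib, against 34.6 and 37.3 CPM with indisulam and 34.8 and 37.7 CPM with both. Its level fell by 0.36 on the log2 scale with indisulam (SE 0.06, adjusted p = 0.000316) and by 0.35 when indisulam was added to palbociclib (SE 0.06, adjusted p = 0.000238). SUM159 had 41.5 and 41.4 CPM untreated, 42.4 and 42.7 CPM with palbociclib, 31.7 and 33.7 CPM with indisulam, and 33.2 and 32.6 CPM with both. The combination libraries lay below the palbociclib libraries, a fall of 0.37 (SE 0.05, adjusted p = 1.71e-05). With palbociclib alone the mean was 46.2 against 46.0 CPM in A549 and 42.5 against 41.4 CPM in SUM159, and neither change passed the test.

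CYP1A1, the enzyme most often used to read AHR activity, was the lowest or near lowest of the genes in untreated cells. SUM159 held 2.12 and 2.49 CPM (44 and 52 counts) untreated, 3.79 and 4.33 CPM with palbociclib, 12.6 and 12.5 CPM with indisulam, and 23.0 and 24.0 CPM (736 and 632 counts) with both. Both combination libraries lay above both palbociclib libraries. The rise on top of palbociclib was 2.52 on the log2 scale (SE 0.09, 95% interval 2.33 to 2.71, adjusted p = 4.47e-12), and 2.42 to 2.62 over 15 alternative fits. As a description, its log2 change against untreated cells was 0.82 with palbociclib, 2.44 with indisulam and 3.34 with both.

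In A549, CYP1A1 was near the detection floor. The untreated libraries held 1 and 4 counts and the palbociclib libraries 1 and 4 counts, against 10 and 22 with indisulam and 11 and 15 with both, or 0.0517 and 0.225, 0.0478 and 0.116, 0.428 and 0.961, and 0.506 and 0.703 CPM. Summed over duplicates and divided by library totals, indisulam gave 5.23 times the untreated level (32 against 5 counts; exact 95% interval 2.02 to 17.2), and the combination gave 6.82 times the palbociclib level (26 against 5 counts; 2.58 to 22.7). Palbociclib gave 0.698 times the untreated level (5 against 5 counts; 0.161 to 3.03), so no change was detectable at this depth. These intervals cover counting error only, and over all genes the duplicates differed by more than that. They are a description and no test, because CYP1A1 passed the low-count filter here only through the libraries that received indisulam.

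CYP1B1, the second CYP1 enzyme and the one more typical of tissues outside the liver, had the reverse distribution between the lines. A549 held 125 and 126 CPM untreated, 130 and 125 CPM with palbociclib, 151 and 150 CPM with indisulam, and 170 and 166 CPM with both. The rises were small beside their scale but larger than the spread: 0.26 on the log2 scale with indisulam (SE 0.04, adjusted p = 0.000125) and 0.40 on top of palbociclib (SE 0.04, adjusted p = 1.84e-06). Palbociclib on top of indisulam gave 0.16 (SE 0.04, adjusted p = 0.00662), a call lost without the first (0.16, adjusted p = 0.0501) or the second indisulam library (0.15, adjusted p = 0.0616; range over 15 alternatives 0.000871 to 0.0616). SUM159 held 2.31 and 2.11 CPM untreated (48 and 44 counts), 4.95 and 5.28 CPM with palbociclib, 9.26 and 10.3 CPM with indisulam, and 14.9 and 16.8 CPM with both. The combination libraries lay above the palbociclib and the indisulam libraries there, and the palbociclib libraries above the untreated ones. Palbociclib alone raised it by 1.21 (SE 0.16, adjusted p = 5.97e-06), the combination by 2.83 (SE 0.13, adjusted p = 5.46e-12), indisulam on top of palbociclib by 1.62 (SE 0.10, adjusted p = 1.35e-09) and palbociclib on top of indisulam by 0.69 (SE 0.09, adjusted p = 5.75e-06).

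AHRR, the repressor, was low in A549, at 1.86 and 1.52 CPM untreated, 2.49 and 2.84 CPM with palbociclib, 3.89 and 4.11 CPM with indisulam, and 6.12 and 5.11 CPM with both. Every group lay apart from the one before it. Indisulam raised it by 1.23 on the log2 scale (SE 0.20, adjusted p = 0.00014) and by 1.06 on top of palbociclib (SE 0.16, adjusted p = 5.73e-05). The palbociclib rise of 0.67 (SE 0.21, adjusted p = 0.0185) was lost under DESeq2 (0.65, adjusted p = 0.0934) and without the second untreated library (0.53, adjusted p = 0.135) or the second palbociclib library (0.55, adjusted p = 0.147; range over 15 alternatives 0.0111 to 0.147). On top of indisulam, palbociclib gave 0.49 (SE 0.15, adjusted p = 0.0187), lost under DESeq2 (adjusted p = 0.137) and without either indisulam library (0.45 and 0.52) or the first combination library (0.38; range of adjusted p over 15 alternatives 0.00695 to 0.137).

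In SUM159, AHRR was at 8.78 and 9.05 CPM untreated, 11.96 and 12.64 CPM with palbociclib, 23.2 and 24.3 CPM with indisulam, and 38.6 and 39.7 CPM with both. As a description, the order of the groups was the same as in A549, at higher levels. Palbociclib raised it by 0.47 on the log2 scale (SE 0.09, adjusted p = 0.000213), the combination by 2.13 (SE 0.07, adjusted p = 1.10e-13) and indisulam on top of palbociclib by 1.66 (SE 0.06, adjusted p = 7.02e-12). Palbociclib on top of indisulam gave 0.72 (SE 0.06, adjusted p = 2.01e-08).

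TIPARP, the ADP-ribosyltransferase, had the most CPM per kilobase of the 4 targets in SUM159 and changed by the smallest folds there. Its level there was 106 and 110 CPM untreated (2190 and 2287 counts), 130 and 124 CPM with palbociclib, 166 and 163 CPM with indisulam, and 169 and 179 CPM with both. Palbociclib gave 0.24 on the log2 scale (SE 0.04, adjusted p = 0.000194) and indisulam on top of it 0.46 (SE 0.04, adjusted p = 1.12e-07). The further change from indisulam to the combination, 0.08 (SE 0.04, adjusted p = 0.11), missed the threshold, but passed with total-count scaling (0.17, adjusted p = 0.00176) and with genes kept at 1 CPM in 2 libraries (0.10, adjusted p = 0.0356; range over 15 alternatives 0.00176 to 0.581). A549 held 22.8 and 22.3 CPM untreated, 26.3 and 25.5 CPM with palbociclib, 27.1 and 28.2 CPM with indisulam, and 37.6 and 37.9 CPM with both. There the combination stood well above each single drug, by 0.54 over palbociclib (SE 0.06, adjusted p = 4.10e-06) and by 0.45 over indisulam (SE 0.06, adjusted p = 4.56e-05). The indisulam rise was 0.29 (SE 0.07, adjusted p = 0.00223). The palbociclib rise of 0.20 (SE 0.07, adjusted p = 0.0259) was lost in 7 of 15 alternative fits, among them those without any 1 of the untreated libraries (0.21 and 0.18) or the palbociclib libraries (0.18 and 0.22; adjusted p 0.00666 to 0.168 over all 15).

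Levels of different genes were compared as CPM per kilobase of the canonical transcript. In untreated A549 the order was CYP1B1 (24.1), AHR (11.2), ARNT (9.76), TIPARP (5.84), AHRR (0.299) and CYP1A1 (0.0532 CPM per kilobase). In untreated SUM159 it was TIPARP (27.9), ARNT (8.80), AHR (7.78), AHRR (1.58), CYP1A1 (0.886) and CYP1B1 (0.424). No 2 neighbours overlapped between duplicates in either order. AHR may be undercounted where it shares exons with another gene, so its place beside genes of similar level is uncertain. With both drugs in SUM159, CYP1A1 reached 9.03 CPM per kilobase, close to AHR at 9.08, and the ranges of these 2 genes over duplicates overlapped (8.82 to 9.24 for CYP1A1 and 8.44 to 9.72 for AHR). CYP1B1 remained the lowest of the 6 there, at 3.04, and the highest in A549, at 32.2.

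The combination was compared with the sum of the single-drug changes on the log2 scale. For CYP1A1 in SUM159 the sum was 3.26 and the combination gave 3.34, a departure of 0.08 (95% interval -0.30 to 0.47). The other departures in SUM159 were 0.25 for AHRR (0.03 to 0.48), -0.52 for CYP1B1 (-0.92 to -0.12) and -0.15 for TIPARP (-0.28 to -0.03). The SUM159 departures contain the indisulam change that chose the genes, so they are a description with no test, and nothing is read from the members beside the 4.38% of all genes called there. In A549 they were -0.18 for AHRR (-0.73 to 0.38, adjusted p = 0.774), 0.13 for CYP1B1 (0.01 to 0.26, adjusted p = 0.237) and 0.25 for TIPARP (0.06 to 0.44, adjusted p = 0.149). With edgeR 0 of 5 genes passed in A549, beside 3.53% of all genes. DESeq2 also called 0 of 5, and at an unadjusted p under 0.05 edgeR gave 2, CYP1B1 and TIPARP.

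**Figure D4:**
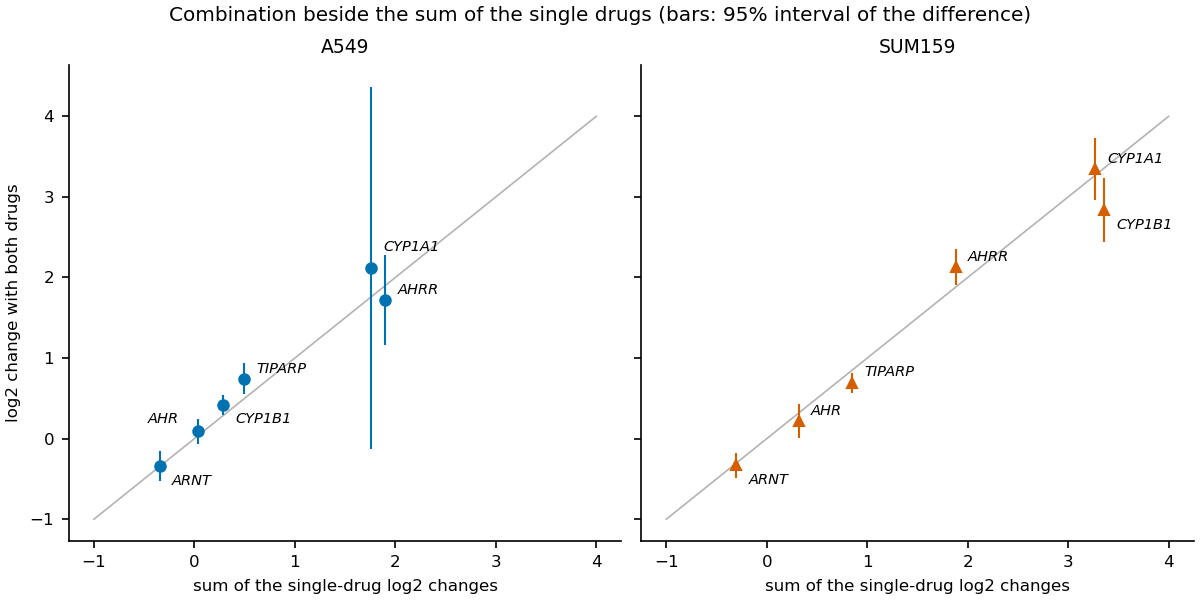
Log2 change with both drugs (y axis) against the sum of the log2 changes with each drug alone (x axis) for the 6 genes in A549 and SUM159; the line marks equality and bars are 95% intervals of the difference. CYP1B1 in SUM159 lies below the line, at a combination change of 2.83 for a sum of 3.36.

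Untreated SUM159 and A549 differed in all 5 genes given a test, in a comparison that called 76.3% of 17764 genes. AHRR was 4.78-fold and TIPARP 4.35-fold higher in SUM159. CYP1B1 was lower there, with a log2 difference of -5.96 (SE 0.08, adjusted p = 1.55e-26), as were AHR at -0.66 (SE 0.07) and ARNT at -0.28 (SE 0.06, adjusted p = 0.000158). The ARNT difference was -0.16 and missed the threshold without the first untreated A549 library (adjusted p = 0.0554; range over 22 alternatives 4.28e-06 to 0.0554). CYP1A1 was also higher in SUM159, at 2.12 and 2.49 CPM against 0.0517 and 0.225 CPM, and gets no test, because the untreated SUM159 libraries helped to choose it.

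The CYP1B1 responses differed between the lines. The palbociclib response was larger in SUM159 by 1.28 on the log2 scale (SE 0.15, adjusted p = 1.31e-06), 1 of 5 genes to differ beside 12.8% of all genes. The combination response was larger by 2.48 (SE 0.13, adjusted p = 8.25e-13), again 1 of 5, beside 30.9%. For indisulam on top of palbociclib 2 of 5 genes differed, beside 20.7%: CYP1B1 by 1.20 (SE 0.10, adjusted p = 6.74e-09) and AHRR by 0.58 (SE 0.16, adjusted p = 0.0113), both larger in SUM159. The AHRR difference was lost without the second palbociclib library of A549 (0.47, adjusted p = 0.176) or its second combination library (0.48, adjusted p = 0.0706; range over 22 alternatives 0.0048 to 0.176). For CYP1A1 the difference in this response was -0.19 (95% interval -1.30 to 0.93), an interval set by the few A549 counts. CYP1A1 is left out of the count and gets no test here, because the A549 palbociclib libraries held only 1 and 4 counts. Scaling both lines together was sensitive: the split of all genes called in the palbociclib response was 1715 higher in SUM159 and 559 lower with TMM, against 1034 and 1315 with the RLE method, and 3386 and 2096 against 2644 and 3029 in the combination response.

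The genes whose level followed CYP1A1 most closely over the 8 SUM159 libraries, by Pearson correlation of log2 CPM, were ZNF638 (0.999), SYNE2 (0.998), AHRR (0.997), WASHC2C (0.996) and C2orf49 (0.996), out of 16079 genes. TIPARP ranked 68th (0.980) and CYP1B1 83rd (0.978), while ARNT ran opposite (-0.913). The points are 4 pairs of duplicates that include the libraries that chose CYP1A1, so many genes ordered by treatment reach such values. The folds differed widely: SYNE2, a nuclear envelope protein gene, went from 28.5 to 100 CPM between untreated and combination cells, ZNF638 from 124 to 170 CPM and C2orf49 from 27.5 to 36.9 CPM. In A549, where CYP1A1 had few counts, AHRR ranked 2257th (0.732) and CYP1B1 1219th (0.826) of 15743 genes.

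Other AHR targets were taken from a list of 25 genes. When indisulam was added to palbociclib in SUM159, 15 of the 21 genes tested rose and 2 fell, beside 48.3% of all genes called, with a median log2 change of 0.34 beside 0.01 for all genes. CYP2S1, a further dioxin-inducible P450, rose by 0.80 on the log2 scale (SE 0.18, adjusted p = 0.00133), FOXQ1 by 0.78 (SE 0.06) and the amino acid transporter gene SLC7A5 by 0.71 (SE 0.03), whereas the cytokine genes IL6 and CXCL8 fell by 0.86 (SE 0.15) and by 0.53 (SE 0.08). Another listed cytokine gene, IL1B, rose by 1.70 (SE 0.25), at 0.0958 to 2.13 CPM over the SUM159 libraries. In A549 the same comparison gave 7 rises and 4 falls among 22 genes tested, beside 51.5% of all genes called, with a median of 0.01 beside -0.01. The glucuronosyltransferase genes UGT1A6 and UGT1A1 rose by 1.03 (SE 0.13) and 0.80 (SE 0.13) there. In SUM159 these genes rose by 1.98 (SE 0.44) and 1.24 (SE 0.27), at no more than 0.655 and 1.77 CPM in any library. Their transcripts share exons, so the split of reads between them is uncertain. In A549 IL6 fell by 0.94 (SE 0.21), CXCL8 by 0.62 (SE 0.13) and the growth factor gene EREG by 0.59 (SE 0.05). IL1B rose there by 1.11 (SE 0.43), at no more than 0.891 CPM in any A549 library.

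**Figure D5:**
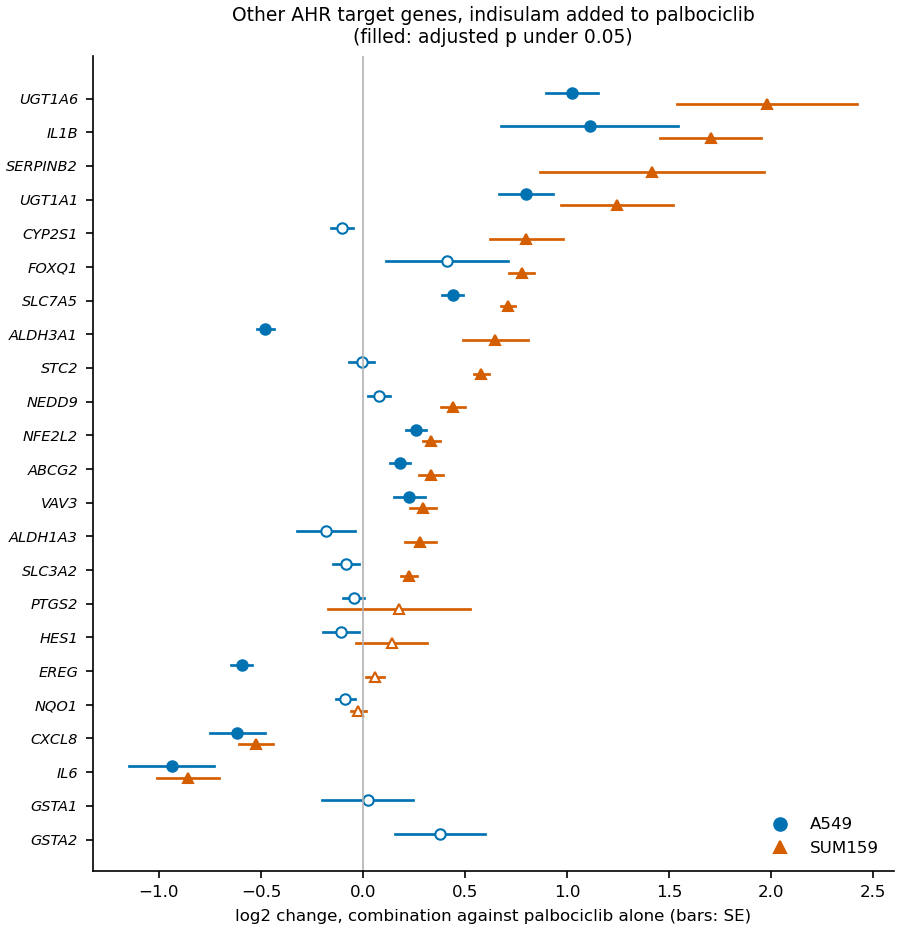
Log2 change with SE (x axis) of the other AHR target genes (rows) when indisulam was added to palbociclib, in A549 (circles) and SUM159 (triangles); filled symbols passed the test. More genes lie to the right of zero in SUM159 (15 rose) than in A549 (7 rose), and IL6 and CXCL8 lie to the left in both. The cytokine gene IL1B lies to the right in both.

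Palbociclib alone raised 10 and lowered 5 of the 21 listed targets in SUM159 (median 0.14 beside 0.02 for all genes, 54.5% of which were called) and raised 9 and lowered 4 of 22 in A549 (median 0.19 beside 0.03, with 43.2% called). IL6 rose by 0.96 in SUM159 (SE 0.17) and by 0.95 in A549 (SE 0.22), opposite to its fall when indisulam was added. GSTA2 and GSTA1 rose by 1.17 (SE 0.29) and 0.76 (SE 0.27) in A549, but these are near-identical copies whose reads may be split uncertainly. The aldehyde dehydrogenase genes ALDH3A1 and ALDH1A3 rose by 0.90 (SE 0.22) and 0.88 (SE 0.09) in SUM159, and the Notch target HES1 fell by 1.07 (SE 0.16). CYP1A2, the liver member of the family, was at most 0.228 CPM in any library. NQO1, a target shared with NFE2L2, stood at 245 to 276 CPM in SUM159 and 1986 to 2589 CPM in A549 and did not pass the test in either line when indisulam was added.

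Among 17 genes of the AHR complex and its cofactors, 7 rose and 4 fell in SUM159 when indisulam was added to palbociclib, and 9 rose and 2 fell in A549 (medians 0.08 and 0.11), beside 48.3% and 51.5% of all genes called and all-gene medians of 0.01 and -0.01. SMARCA4, the chromatin remodelling ATPase, fell by 0.83 in A549 (SE 0.09, adjusted p = 2.32e-06). Palbociclib alone raised 1 and lowered 10 of the 17 in SUM159, where 54.5% of all genes were called, and raised 2 and lowered 7 in A549, where 43.2% were; HSP90AA1, which encodes the chaperone of unliganded AHR, fell by 0.63 (SE 0.04) and 0.77 (SE 0.04), and CREBBP and SP1 fell by 0.69 (SE 0.07) and 0.54 (SE 0.04) in SUM159.

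Enzymes that act on tryptophan or its products, some of which are AHR ligands, were sparsely expressed: 8 of 13 could be tested in SUM159 and 9 in A549. TDO2, which opens the tryptophan ring, was at 4.42 CPM in both palbociclib libraries of SUM159 against 1.44 and 1.29 CPM with both drugs, a fall of 1.69 on the log2 scale (SE 0.18, adjusted p = 7.61e-07). In A549 it fell by 2.84 (SE 0.36, adjusted p = 1.30e-05), from 2.58 and 2.75 to 0.460 and 0.281 CPM. Of the 9 genes tested in A549 0 rose and 5 fell when indisulam was added, DDC by 1.16 (SE 0.08) and AADAT by 0.94 (SE 0.14), with a median of -0.34, beside 51.5% of all genes called. In SUM159 2 rose, among them MAOB by 0.54 (SE 0.14), and 3 fell, among them KYAT3 by 0.77 (SE 0.07), with a median of -0.04, beside 48.3% of all genes called.

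Of the 16 bHLH-PAS relatives of AHR and ARNT, BMAL2, a partner of the CLOCK protein, was at 81.9 and 79.0 CPM in untreated SUM159, 45.0 and 40.3 CPM with palbociclib, 34.2 and 32.1 CPM with indisulam and 18.1 and 18.3 CPM with both, and in A549 at 52.8 and 57.1, 39.8 and 38.7, 13.9 and 13.3, and 8.42 and 8.77 CPM. Its level was lower in every treated group than in untreated cells of the same line, and it fell by 1.22 (SE 0.07) in SUM159 and by 2.19 (SE 0.08) in A549 when indisulam was added to palbociclib. ARNT2, the close relative of ARNT, rose by 1.16 in SUM159 (SE 0.21, adjusted p = 0.000222), from 1.24 and 0.914 to 2.50 and 2.21 CPM, and by 0.72 in A549 (SE 0.08, adjusted p = 7.24e-06). NPAS2 and SIM2 rose by 1.24 (SE 0.07) and 1.00 (SE 0.07) in SUM159. HIF1A, another partner of ARNT, fell by 0.54 in A549 (SE 0.05). In this comparison 6 relatives rose and 2 fell of 14 tested in SUM159, and 7 rose and 3 fell of 12 in A549 (medians 0.07 and 0.24, beside 0.01 and -0.01 for all genes, of which 48.3% and 51.5% were called).

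HIF targets, whose activators also use ARNT, rose and fell in similar numbers. When indisulam was added, 5 of 18 rose and 7 fell in SUM159 and 4 of 17 rose and 3 fell in A549, beside 48.3% and 51.5% of all genes called, with medians of -0.05 and -0.07. EGLN3 rose by 0.75 (SE 0.04) and MXI1 by 0.58 (SE 0.08) in SUM159, and ANKRD37 fell by 0.51 (SE 0.18). In A549 the histone demethylase gene KDM3A rose by 0.69 (SE 0.06) and NDRG1 by 0.59 (SE 0.04).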

How the data were processed

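Poly(A) RNA of 16 libraries was sequenced on strand-specific libraries in paired reads. Per the study's methods reads were trimmed with SeqPurge and aligned to GRCh38 with HISAT2 (2.2.1 per the submitters' processing notes, which also name HTSeq). The strand setting and annotation release are not given in the sources used here. The authors deposited raw counts per Ensembl gene, with no normalization or pooling. Reads in no feature (3.89 to 6.78%), ambiguous (4.38 to 5.62%) or not uniquely aligned (4.25 to 5.25%) were kept out. These are shares of gene counts and all set-aside categories together.

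Symbols were matched for 58207 of 58676 gene rows with GENCODE release 44. Counts were fitted with edgeR 4.0.16 (R 4.3.3): filterByExpr (minimum count 10), TMM scaling, glmQLFit and glmQLFTest, Benjamini-Hochberg adjustment over all genes, threshold 0.05, two-sided. The 8 libraries of a line were fitted together (15744 genes in A549, 16080 in SUM159), and all 16 (17764 genes) for differences between lines. Each result was recomputed with RLE or total-count scaling, DESeq2 1.42.0, other filters, a replicate block, fewer groups and each library left out. Duplicates differed by more than sampling noise (chi-square per degree of freedom 1.59 to 9.13). Genes most like CYP1A1 were ranked with a prior count of 2. From each list, at most 3 rises and 3 falls could be named per comparison, with an adjusted p under 0.05, an absolute log2 change of 0.5 or more and a mean of 1 CPM. Rises of IL1B, and of UGT1A6 and UGT1A1 in SUM159, are given although these genes were too low for this rule. A listed gene that met this rule is not reported here. The lists were the AHR complex and cofactors, other AHR targets (24 of 25 matched), tryptophan-derived ligand enzymes, bHLH-PAS relatives, HIF targets, the PXR and CAR axis, and P450 partners and haem synthesis, with epithelial, mesenchymal and receptor markers. The members and lists were chosen with earlier results of these data known. Without molecular identifiers, PCR copies count as separate reads. The floors and the exact intervals for CYP1A1 in A549 cover counting error only. All other intervals came from edgeR and include the spread between libraries. The scan of 1500 upstream bases was added after the data were seen.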

Additional observations from a re-analysis of the deposited data

Results flagged for a closer look

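Responses of 2 genes differed between the cell lines by a test of the difference itself. CYP1B1 responded more in SUM159 than in A549, by 1.28 on the log2 scale to palbociclib (adjusted p = 1.31e-06), by 2.48 to the combination (adjusted p = 8.25e-13) and by 1.20 to indisulam on top of palbociclib (adjusted p = 6.74e-09), from untreated levels of 2.31 and 2.11 CPM in SUM159 and 125 and 126 CPM in A549. AHRR responded more in SUM159 to indisulam on top of palbociclib, by 0.58 (adjusted p = 0.0113), from palbociclib levels of 11.96 and 12.64 CPM in SUM159 and 2.49 and 2.84 CPM in A549. These 3 comparisons share libraries, and groups of 2 could not be searched for outlying libraries. The palbociclib and combination responses also use the untreated SUM159 libraries, which helped to choose the genes.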

How the results depend on the processing

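With indisulam added to palbociclib within a line, the calls of TIPARP, AHRR, ARNT, CYP1B1 and, in SUM159, CYP1A1 were kept under all 15 alternatives. With A549 palbociclib against untreated, 2 genes were called, but 0 with DESeq2, 1 with no filter on low genes, 1 with only the groups compared and 0 to 2 in leave-one-out fits. With palbociclib added to indisulam in A549, 4 were called, but 2 with DESeq2 and 1 to 3 in leave-one-out fits. Leave-one-out fits called 1 to 2 members for the combination response between lines and 1 to 3 for indisulam on top of palbociclib, where the CYP1A1 difference ran from -1.03 to 0.19 over the alternatives and turned positive without the first palbociclib library (0.19) or the second combination library (0.08) of A549. Genes departing from additivity numbered 556 in A549, against 343 with DESeq2, 998 with no filter and 52 (without the second indisulam library) to 976 (without the first combination library) in leave-one-out fits, and 704 in SUM159, against 439 with DESeq2 and 207 (without the second indisulam library) to 941. In leave-one-out fits 1546 to 3686 genes (without the first combination library of A549), against 2274, differed in the palbociclib response between lines, and 1725 (without the second indisulam library of SUM159) to 3054, against 2666, in the indisulam response. Total-count scaling moved the median of all genes in SUM159 from 0.01 to 0.16 for the combination against untreated, and the share of calls that were higher from 49.3% to 64.3%. The cause was not tested. Same-numbered libraries did not deviate together (correlations -0.188 to 0.188 over 12 pairs, 4 under -0.1), so the numbers do not pair the samples. The replicate block changed no call of a member and gave 6609 genes against 6796 for palbociclib in A549 and 7443 against 7764 for indisulam added to palbociclib in SUM159. Crossing the numbers, chosen after seeing the data, gave 7274 and 8231. A leave-one-out fit leaves a group with 1 library, assumed to vary like the others. Depth limits CYP1A1 in A549 most, at 1 to 22 counts per library.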

Other observations

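With palbociclib alone in SUM159, 7 of 13 genes of P450 partners and haem synthesis rose and 2 fell, beside 54.5% of all genes called. Among the rises were HMOX1, which degrades haem, by 0.72 on the log2 scale (SE 0.04, adjusted p = 3.77e-11) and PPOX, of the haem synthesis pathway, by 0.56 (SE 0.11, adjusted p = 0.000317). In A549 4 rose and 0 fell by the same edgeR test, beside 43.2% of all genes called. When indisulam was added, 4 rose and 4 fell in SUM159 and 2 rose and 5 fell in A549, beside 48.3% and 51.5% of all genes called. Of the 11 genes of the PXR and CAR axis, which governs other P450 genes, 2 could be tested in SUM159 and 5 in A549. When indisulam was added, beside the same shares of all genes called, 0 rose in either line, 1 fell in SUM159 and 3 fell in A549, among them CYP2C8 by 0.83 (SE 0.24, adjusted p = 0.0102). Palbociclib alone raised CYP3A5 by 0.55 in A549 (SE 0.08) and the transporter gene ABCC2 by 0.65 in SUM159 (SE 0.04).

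Markers of cell identity also moved. When indisulam was added to palbociclib, 4 of 5 mesenchymal markers fell in SUM159, SNAI2 by 0.52 (SE 0.05, adjusted p = 3.37e-07), as did 3 of 5 epithelial markers, beside 48.3% of all genes called. In A549 4 of 5 epithelial markers fell and 3 of 5 mesenchymal markers rose, beside 51.5%. Palbociclib alone raised KRT7 in SUM159 by 0.67 (SE 0.03, adjusted p = 3.65e-11). Their part in the changes of the AHR genes was not tested.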
